A study of Danio rerio with 10 samples.

Results

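The comparison described here sets microglia taken 24 h into drug-driven loss of neurons against microglia of fish that received solvent only. It rests on 4 of the 10 samples of the series, chosen by their labels: activated microglia 24 h samples 3 and 7, and control microglia samples 1 and 5. All fish were 3-month-old zebrafish carrying Neuro:NTR-mCherry and mpeg1:GFP. NTR, a bacterial nitroreductase made here in neurons, converts metronidazole (MTZ) into a product that kills the cells holding it, and the mpeg1 promoter drives GFP in macrophages of every kind, microglia among them. The activated group received MTZ for 24 h, and the control fish, with the same transgenes, received DMSO. Activated microglia 48 h samples 4 and 8, from fish given MTZ for 48 h, share the fit and serve as a further comparison. The sort took cells by their GFP after trypsin digestion and Percoll, so a cell of another macrophage type that carries GFP would also be in it. The labels do not say whether the samples came from separate animals or pools, and p-values therefore reflect only how these samples vary, which may be technical variation.

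Microglia are the resident macrophages of the brain: they survey the tissue, take up dying cells and debris, present antigen and release cytokines and chemokines. After injury they can also divide, which requires loading of the MCM helicase at origins, copying of the DNA with the sliding clamp Pcna, and then mitosis under cyclin-dependent kinase 1. Growth before division draws on ribosome assembly, aminoacyl-tRNA synthetases, chaperones and the proteasome.

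Values are the authors' normalized signal per gene, a scaled read count with no correction for gene length, so levels are compared within a gene only. Pairs of values are given in the order of sample numbers: 3 and 7 at 24 h, 1 and 5 in controls, 4 and 8 at 48 h. The 24 h libraries held 12815571 and 8600052 reads, the control libraries 6900171 and 6897191, and the 48 h libraries 9325194 and 11497062. A gene with no reads is listed at 0.223, and 3 reads were worth between 0.233 and 0.464 units in the libraries compared. The standard deviation of the log2 difference between replicates was 0.513 at 24 h, 0.723 in controls and 0.995 at 48 h, and 48 h sample 8 correlated less with the other 5 libraries (Pearson r 0.866 to 0.918) than 48 h sample 4 did with the 24 h pair (0.971 and 0.973). The 13 mitochondrially encoded genes with mt- names took 4.37% and 2.87% of reads at 24 h, against 8.99% and 6.69% in controls. These shares cover only those genes and not all mitochondrial reads. AC024175.4, not counted in them, had the most reads of any gene in each of the 4 libraries. It took 2.55% and 3.06% of reads at 24 h and 5.45% and 4.26% in controls. Control microglia sample 9 and 24 h sample 3 have identical deposited values in all 21756 genes. The values were used here as 24 h sample 3 and not as a control, and which label is right is not given in the sources used here. As deposited they correlated at 0.974 with 24 h sample 7, and at 0.898 and 0.932 with control samples 1 and 5. In the comparison with controls, where the larger count of a list changed by more than 1.5 times without 24 h sample 3 or another library, the value is given beside the list. All 10 microglia markers had reads in the 4 libraries, mpeg1.1 standing at 2103 and 2469 units at 24 h and 2545 and 2734 in controls. Of the 10, 6 were higher and 4 lower at 24 h, among the latter cd74a at 6701 and 5315 units against 15820 and 14650. The 10 summed to 33550 and 37870 units at 24 h and 41710 and 43900 in controls. In other brain cells samples 2, 6 and 10 the sums were 764, 261 and 203. The purity of the sort was not tested.

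The proliferation marker pcna and the nucleotide receptor p2ry12 stood higher in both 24 h libraries than in both control libraries, while the cytokine il1b overlapped between the groups. pcna (ENSDARG00000054155), the sliding clamp of DNA replication, was at 518 and 329 units at 24 h, against 122 and 135 in controls. Its log2 difference was 1.67 ± 0.30 (SE, on the log2(value + 1) scale used throughout; limma, Benjamini-Hochberg adjusted p = 0.176). p2ry12 (ENSDARG00000069945), the purine receptor through which microglia sense ATP and ADP from damaged cells, was at 57.7 and 57.8 units at 24 h and 15.4 and 21.2 in controls, a difference of 1.62 ± 0.31 (adjusted p = 0.181). il1b (ENSDARG00000098700), the proinflammatory cytokine interleukin 1 beta, was at 312 and 366 units at 24 h and 319 and 218 in controls, with the 24 h library 3 below control library 1. Its difference was 0.36 ± 0.35 (adjusted p = 0.665). In the authors' deposited table the log2 folds of 24 h over control for these genes were 1.51, 1.36 and 0.54, and only that of pcna had an FDR under 0.05 (0.0313).

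With 2 libraries a side, 1 gene of 21714 passed an adjusted p of 0.05 as higher at 24 h (0.00461% of genes) and none as lower (0%). An unadjusted p under 0.05 was reached by 3408 genes, of which 1993 (9.18% of genes tested) were higher and 1415 (6.52%) lower at 24 h. These percentages are the background against which each gene list below is read. The background itself moved when a library was left out, to 4.97% higher and 2.92% lower without 24 h sample 3, 5.17% and 2.91% without 24 h sample 7, and 4.81% and 5.05% without control sample 1. It was 8.54% and 6.67% without control sample 5, 14.1% and 9.71% without 48 h sample 4, and 14.1% and 9.64% without 48 h sample 8. List counts from a fit without a library are to be read against that fit's own percentages. The median difference over all genes tested was 0.01. In an exact permutation test of a single value, 2 against 2 libraries cannot give a two-sided p under 0.333. The authors' deposited table, whose control libraries it does not name, counts 128 genes as higher and 121 as lower with its FDR below 0.05, and 122 and 108 of these had an unadjusted p under 0.05 in the same direction here. That table was made from the same series, so its values, here and beside the genes and lists below, are no independent evidence.

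The gene that passed as higher at 24 h was BX004816.4 (ENSDARG00000087012, later named si:dkey-30g5.2), for which no function is given in the sources used here. It stood at 185 and 149 units at 24 h, against 0.996 and 1.29 in controls, and at 81.9 and 69.6 at 48 h. The control libraries held 5 and 7 reads of it and the 24 h libraries 2382 and 1271, and the difference was 6.29 ± 0.25 (limma, adjusted p = 0.0379). The call ended without any 1 of the 6 libraries in turn, control and 48 h libraries included. In the authors' deposited table the same gene has a log2 fold of 0.71 for 24 h over control with an FDR of 0.892, and 1.14 for 24 h over 48 h, where the difference here was 1.13 ± 0.25. The fold over control thus differs between the authors' table and the values of control samples 1 and 5, and which libraries entered the authors' control value is not given.

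The genes next in rank that were higher at 24 h encode parts of the proteasome, the MCM helicase, DNA methylation, the chaperones and the actomyosin cytoskeleton. psmd2 (ENSDARG00000099653), a subunit of the 19S cap that feeds proteins into the proteasome, was at 82.9 and 88.4 units at 24 h, against 8.26 and 9.05 in controls, a difference of 3.17 ± 0.20 (limma, adjusted p = 0.134). A near copy listed as PSMD2 (2 of 2) (ENSDARG00000103190) was at 59.5 and 67.9 units at 24 h and 3.93 and 3.57 in controls. Reads may be split between these copies in a way not stated, so neither level is certain by itself. The helicase subunits mcm5 and mcm2 followed: mcm5 stood at 138 and 117 units at 24 h and 17.5 and 12.9 in controls, and mcm2 at 199 and 172 at 24 h and 7.49 and 13.5 in controls. dnmt1, the methyltransferase that copies DNA methylation onto new strands, was at 55.2 and 54.6 units at 24 h and 4.86 and 6.31 in controls, a difference of 3.09 ± 0.28. mms22l, whose human product acts at damaged replication forks, had 24.6 and 15.8 units at 24 h and 0.223 and 0.68 in controls, where control sample 1 held no read of it.

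hsp90b1, the endoplasmic reticulum member of the Hsp90 family, was at 682 and 656 units at 24 h, against 153 and 129 in controls. The chaperonin subunit cct4 was at 287 and 323 units at 24 h and 70.5 and 83.9 in controls, and CABZ01075268.1, later named CCT2, at 125 and 112 at 24 h and 31.7 and 25.2 in controls. Both are parts of the ring that folds actin and tubulin. flna, the actin crosslinker filamin A, was at 47.3 and 56.3 units at 24 h and 9.49 and 8.9 in controls, and myh9a, a nonmuscle myosin heavy chain, at 259 and 316 at 24 h and 40.6 and 56.8 in controls. The remaining members of the leading 15 were dpp3, a peptidase that removes dipeptides, at 95.9 and 96.1 units at 24 h and 15.1 and 17.1 in controls, cpsf2 and prpf6. cpsf2, a factor of mRNA 3' end cleavage, stood at 45 and 49.1 units at 24 h and 5.79 and 6.46 in controls, and the splicing factor prpf6 at 59.1 and 78.5 at 24 h and 12.1 and 12.2 in controls. Computed without 24 h sample 3, the differences of the 15 were from 1.94 to 6.13. Their direction could not turn, since these genes were chosen for no overlap between the groups. Beside BX004816.4, the other 14 had adjusted p from 0.134 to 0.176. In the authors' deposited table all 15 had a fold in the same direction, from 0.714 to 3.03, and 5 an FDR under 0.05 (cpsf2, dnmt1, hsp90b1, flna and myh9a). These genes were chosen on values of the same series, so this is no independent evidence.

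The leading genes that were lower at 24 h include several named in dendritic cells and immune signalling. zgc:55621 (ENSDARG00000010782), later named ppt2a.2 and so placed with the palmitoyl-protein thioesterases of the lysosome, was at 38.4 and 37.2 units at 24 h, against 256 and 243 in controls, a difference of -2.69 ± 0.19 (limma, adjusted p = 0.157). The chemokine gene ccl19a.1 (ENSDARG00000058389), whose mammalian counterpart attracts Ccr7-bearing lymphocytes and dendritic cells, was at 28.1 and 26.6 units at 24 h and 819.7 and 653 in controls. Its difference of -4.69 ± 0.52 was the largest among the 15. siglec15l, a sialic acid receptor gene, stood at 11.46 and 7.25 units at 24 h and 115 and 101 in controls. The adhesion gene hepacam2 stood at 13.7 and 8.3 at 24 h and 79.6 and 85.5 in controls, and id2a, an inhibitor of helix-loop-helix factors, at 87 and 89.6 at 24 h and 271 and 300.2 in controls. No 24 h library reached a control library in any of these, which was a condition for entering the 15.

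si:dkey-13m1.2, later named il12rb1 after the interleukin 12 receptor, was at 1.31 and 1.51 units at 24 h and 17.5 and 16.2 in controls. kcnk18, a potassium leak channel gene, was at 2.01 and 2.1 units at 24 h and 20.47 and 20.31 in controls. fcer1g, the gamma chain that carries the signal of Fc receptors through its ITAM, was at 32.2 and 32.4 units at 24 h and 103 and 94.1 in controls, and cyth4a, an exchange factor for Arf proteins, at 15.7 and 11 at 24 h and 77.3 and 78.2 in controls. The others of the 15 were kazald3, si:dkey-18p12.4, CR385050.1, si:dkey-78o7.3, BX682234.1 and a gene listed under a clone name, with differences from -2.89 ± 0.36 to -1.64 ± 0.24. All 15 had adjusted p from 0.157 to 0.176 in limma, and without 24 h sample 3 the differences were from -4.73 to -1.57. Here too the choice of genes without overlap fixed the direction. In the authors' deposited table all 15 were lower at 24 h, with log2 folds from -4.65 to -1.31, and 13 had an FDR under 0.05, the exceptions being id2a (0.0573) and fcer1g (0.184). As for the higher genes, the choice was made on values of the same series, so this is no independent evidence. The median fold of the 15 was -2.61 in that table and -2.48 here, whereas for the 15 leading higher genes it was 1.96 in that table and 2.76 here.

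**Figure D1:**
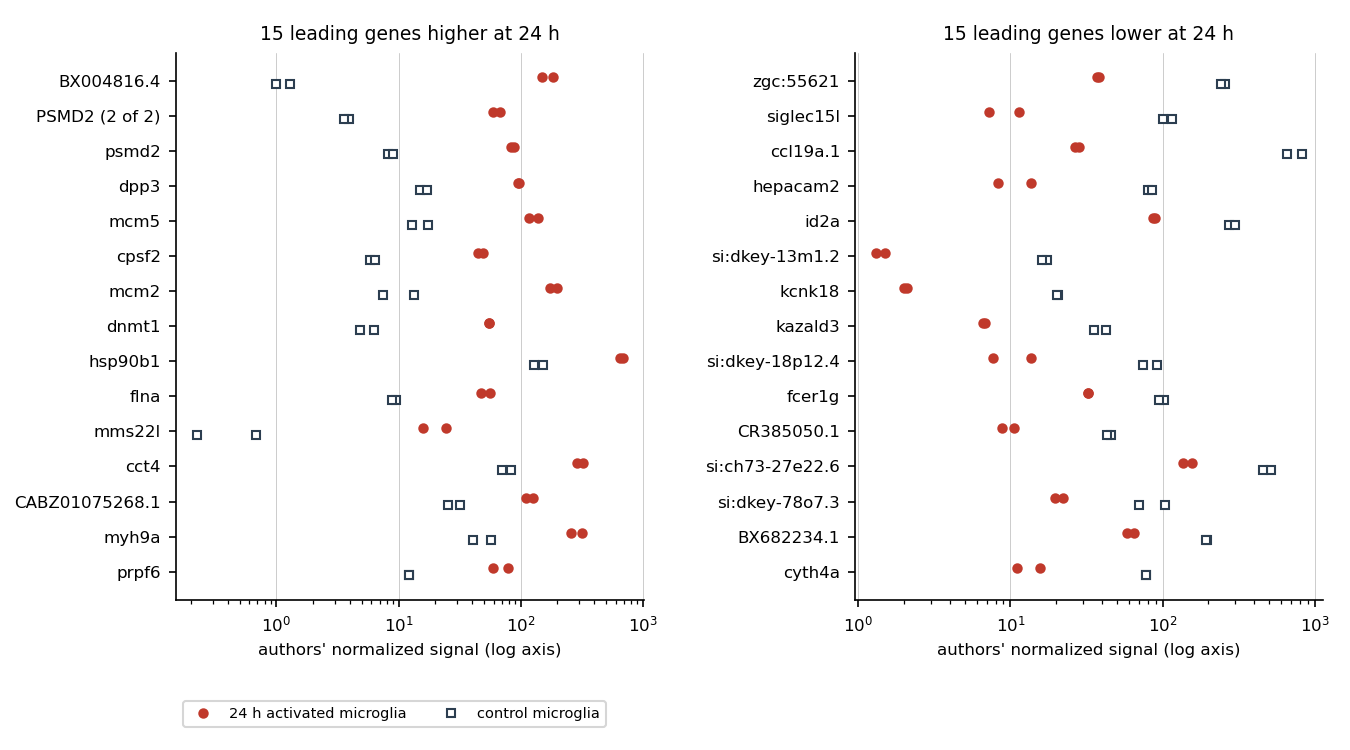
Authors' normalized signal (log axis) of the 15 leading genes higher at 24 h (left) and the 15 leading genes lower at 24 h (right), ranked by p, 1 point per library: 24 h activated microglia as filled circles, control microglia as open squares. In each gene both 24 h libraries lie on one side of both control libraries, as the choice of genes required. BX004816.4, at 185 and 149 units at 24 h and 0.996 and 1.29 in controls, has the widest gap.

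DNA replication genes stood higher at 24 h in the lists for origin loading, the fork and nucleotide supply. Of 28 genes of the MCM helicase and its loading, 16 were higher and 0 lower at an unadjusted p under 0.05, beside 9.18% and 6.52% of all genes, with a median difference of 1.65 against 0.01 over all genes. mcm3 stood at 195 and 143 units at 24 h and 14.4 and 24.9 in controls, and mcm4 at 161 and 128 at 24 h and 19.7 and 19.4 in controls. The exception in direction with the largest size was dbf4, the activating subunit of the kinase that fires origins, at 31.9 and 33.1 units at 24 h and 60.2 and 39.34 in controls (difference -0.57 ± 0.30, limma adjusted p = 0.435). Of 35 genes of the fork, its polymerases and chromatin assembly, all 35 had a positive difference, 24 were higher at that level and the median was 1.73. chaf1a, the large subunit of the assembly factor that places histones on new DNA, was at 66.2 and 50.6 units at 24 h and 4.09 and 6.62 in controls. pold1, the catalytic subunit of polymerase delta, was at 61.9 and 58.2 units at 24 h and 12.9 and 9.66 in controls, and the histone chaperone nasp at 124 and 116 at 24 h and 35 and 31.4 in controls.

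Of 29 nucleotide synthesis genes, 16 were higher and 0 lower, with a median of 1.40. rrm1, a subunit of the ribonucleotide reductase that makes deoxynucleotides, stood at 72.9 and 66 units at 24 h and 20.31 and 11 in controls. Its partner rrm2 stood at 166 and 108 units at 24 h and 44.3 and 30.4 in controls. The purine synthesis gene atic was at 28.9 and 17.9 units at 24 h and 1.61 and 3.42 in controls, and the folate cycle gene mthfd1l at 46.1 and 45.9 at 24 h and 1.92 and 11.49 in controls. No member of these lists passed the adjusted p of 0.05. The counts of higher genes in the helicase, fork and nucleotide lists were 8, 13 and 8 without 24 h sample 3, and the nucleotide count was 8 without 24 h sample 7. With control sample 5 left out the helicase count was 10. Of the members of these lists, 1, 10 and 4 were higher at an FDR under 0.05 in the authors' deposited table, beside 0.589% of all genes, and the median log2 folds there were 1.48, 1.49 and 1.06.

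Mitosis genes also had a positive median at 24 h, with a wide spread among its members. Of 73 mitosis and cytokinesis genes, 27 were higher and 0 lower at an unadjusted p under 0.05, with a median of 1.17. The kinesin kif11, which pushes spindle poles apart, was at 27.7 and 10.4 units at 24 h and 0.841 and 1.29 in controls, a difference of 3.14 ± 0.67 (limma, adjusted p = 0.19). smc2, of the condensin complex that compacts chromosomes, was at 28.2 and 32.2 units at 24 h and 3.78 and 5.55 in controls, and ncapd2, of the same complex, at 21.6 and 14.4 at 24 h and 1.15 and 3.72 in controls. cdca7a stood at 60.5 and 49.5 units at 24 h and 5.01 and 8.59 in controls, and the centromere gene cenpn at 8.83 and 6.31 at 24 h and 0.223 and 0.832 in controls. On the other side ube2c (ENSDARG00000035770), the ubiquitin-conjugating enzyme of the anaphase-promoting complex, was at 6.5 and 5.61 units at 24 h and 17.1 and 11.8 in controls, a difference of -1.11 ± 0.64 (adjusted p = 0.471). The symbol ube2c is carried by more than 1 gene identifier, and this value belongs to the identifier given. The count of higher mitosis genes was 10 when 24 h sample 3 was left out.

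Of 29 genes of the G1 cyclins, E2F factors and Rb, 14 were higher and 1 lower, with a median of 0.92. ccne2, the cyclin that takes cells into S phase, was at 28.1 and 20.6 units at 24 h and 2.39 and 5.09 in controls, and the growth factor-driven transcription factor myca at 66.7 and 78.2 at 24 h and 20.2 and 29.8 in controls. cdk1, the kinase of mitotic entry, was at 38.9 and 24.7 units at 24 h and 12.43 and 9.81 in controls. cdkn1bb, which encodes a p27 inhibitor of cyclin-dependent kinases, had the largest negative difference of the list, 47.1 and 74.1 units at 24 h and 185 and 135 in controls (-1.41 ± 0.59, limma adjusted p = 0.342). The count of higher genes was 4 without 24 h sample 3, 7 without 24 h sample 7 and 8 without control sample 1. The lower genes numbered 3 without 48 h sample 4 or 8.

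**Figure D2:**
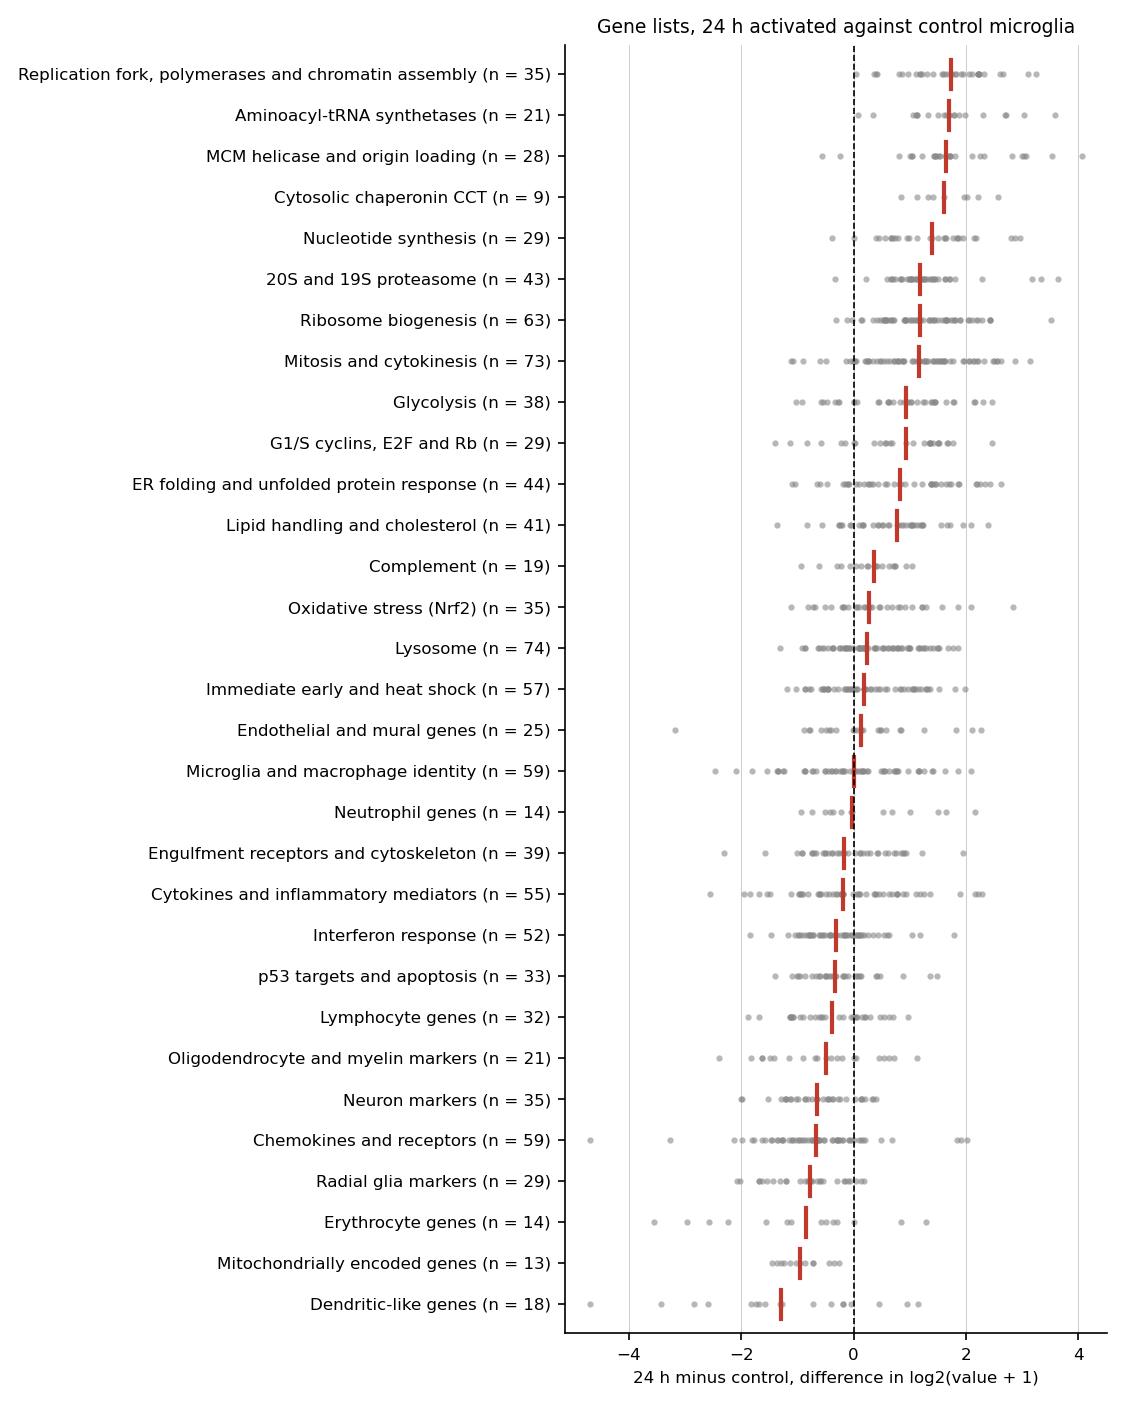
Difference of 24 h minus control microglia in log2(value + 1) for the members of each gene list, 1 grey point per gene, ordered by the list median (red bar), with the median over all genes as a dashed line; n is the number of genes tested. The replication fork list lies highest, at a median of 1.73, and the dendritic-like list lowest, at -1.30.

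Genes of protein supply and quality control were higher at 24 h in all 5 lists examined. Of 63 ribosome biogenesis genes, 36 were higher and 0 lower at an unadjusted p under 0.05, with a median of 1.18. tbl3, a protein of the small subunit processome, was at 39.298 and 39.08 units at 24 h and 2.7 and 2.35 in controls, and utp18, of the same complex, at 25.7 and 23.5 at 24 h and 3.47 and 4.03 in controls. Of 21 aminoacyl-tRNA synthetase genes, 17 were higher and 0 lower, with a median of 1.69. iars, which charges isoleucine, stood at 77.8 and 58.7 units at 24 h and 3.62 and 6.16 in controls (difference 3.58 ± 0.46, limma adjusted p = 0.176). kars, which charges lysine, stood at 229 and 196 units at 24 h and 53.2 and 85.2 in controls, and hars, which charges histidine, at 121 and 129.9 at 24 h and 31.1 and 51.8 in controls. All 9 entries of the cytosolic chaperonin list, found for 8 names, were higher at the same level, with a median of 1.61. Among them tcp1 was at 265 and 264 units at 24 h and 48.4 and 65.4 in controls. CCT2 and CABZ01075268.1, later named CCT2, are separate entries, and how reads are split between them is not stated.

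Of 43 proteasome genes, 22 were higher and 0 lower, with a median of 1.18. psmd1, a further subunit of the 19S cap, stood at 205 and 244 units at 24 h and 11.2 and 25.8 in controls, and psmd3 at 99.7 and 113 at 24 h and 5.63 and 16.1 in controls. In both genes control sample 5 was above control sample 1 by a larger ratio than that between the 24 h libraries. Of 44 genes of folding in the endoplasmic reticulum and the unfolded protein response, 17 were higher and 0 lower, with a median of 0.83. hspa5, the Hsp70 chaperone BiP of that compartment, was at 1200.0 and 1527 units at 24 h and 202 and 236 in controls, a difference of 2.63 ± 0.29 (limma, adjusted p = 0.176). The co-chaperone dnajc3a was at 64.7 and 62.7 units at 24 h and 13 and 21.7 in controls, and hyou1, another chaperone of the compartment, at 161 and 167 at 24 h and 38.9 and 69.3 in controls. ppp1r15a, the phosphatase subunit induced by stress that restores translation, went the other way, at 97.1 and 141 units at 24 h and 399.7 and 157 in controls.

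The size of these counts depended on single libraries. The ribosome biogenesis, proteasome and folding lists had 16, 10 and 7 higher genes without 24 h sample 3, and 13, 8 and 7 without 24 h sample 7. They had 21, 10 and 9 without control sample 1, and the proteasome count was 13 without control sample 5. Leaving out 48 h sample 4 or 8 gave 37 for the proteasome in each case. The synthetase count stayed between 12 and 19 and the chaperonin count between 7 and 9. In the authors' deposited table the median log2 folds were 0.751 for ribosome biogenesis, 1.19 for the synthetases, 1.14 for the chaperonin, 0.948 for the proteasome and 0.869 for folding, with 1, 1, 0, 1 and 3 members at an FDR under 0.05.

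Glycolysis and pentose phosphate genes were higher as well, 18 of 38 with 1 lower and a median of 0.92. TALDO1, a transaldolase of the pentose phosphate pathway that supplies ribose for nucleotides, was at 250.1 and 231 units at 24 h and 44.4 and 63.1 in controls. The transketolase tktb, of the same pathway, was at 468 and 437 units at 24 h and 70.5 and 93.8 in controls. hk1, the hexokinase that commits glucose to these pathways, was at 99.5 and 143 units at 24 h and 31.3 and 36.4 in controls (difference 1.79 ± 0.26, limma adjusted p = 0.176). The glucose transporter gene slc2a3a was at 11.2 and 7.36 units at 24 h and 14.9 and 25.8 in controls. The count of higher genes was 11 without 24 h sample 7 and 9 without control sample 1. The 13 mitochondrially encoded genes of the respiratory chain all had negative differences, with a median of -0.96, and 1 was lower at an unadjusted p under 0.05. This was mt-nd3, a subunit of complex I, at 63.5 and 50.4 units at 24 h and 179 and 102.2 in controls. None was lower at that level without 24 h sample 7 or control sample 1, 2 were without control sample 5 and 5 without 48 h sample 4 or 8, with medians from -1.28 to -0.63 over these fits. The mitochondrial share of reads given above is the share of these same 13 genes, so it is no separate observation. The part of these genes in the differences of the other lists was not tested.

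Microglia and macrophage identity genes were divided, with 8 of 59 higher, 7 lower and a median of 0.00. lcp1, the leukocyte actin bundler, was at 2590.0 and 2828 units at 24 h and 562 and 722 in controls, a difference of 2.09 ± 0.44 (limma, adjusted p = 0.189). mafba, a transcription factor of macrophage differentiation, was at 495 and 676 units at 24 h and 190.1 and 247 in controls. aif1l, a relative of the macrophage marker Iba1, was at 35.4 and 29.1 units at 24 h and 159 and 210.0 in controls, a difference of -2.47 ± 0.54 (adjusted p = 0.191), and no 24 h library came near a control. The receptor paralogues csf1ra, one of the 10 microglia markers, and csf1rb, chosen here after its values were seen, stood on opposite sides. csf1ra had 506 and 352 units at 24 h and 173 and 178 in controls, and csf1rb 639 and 451 at 24 h and 1319 and 1266 in controls. The antigen presentation chaperone cd74b, chosen in the same way as csf1rb, was at 1463 and 1005 units at 24 h and 4297 and 4199 in controls. The counts of the identity list were 3 higher and 4 lower without control sample 1, and 4 higher and 3 lower without 24 h sample 7. With 24 h sample 3 left out 4 were higher, and with 48 h sample 4 or 8 left out 12 were lower.

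Among the genes by which microglia take up and digest cells, counts are given beside 9.18% higher and 6.52% lower among all genes. Of 74 lysosome genes, 13 were higher and 2 lower, with a median of 0.24. atp6v1aa, of the proton pump that acidifies the lysosome, was at 199.8 and 197 units at 24 h and 71.3 and 76 in controls, and atp6v1d, of the same pump, at 138 and 199 at 24 h and 42.3 and 54.6 in controls. gba, the glucocerebrosidase, was at 32.7 and 38.7 at 24 h and 10.1 and 13.6 in controls. The count of higher lysosome genes was 2 without 24 h sample 7 or control sample 1, 7 without 24 h sample 3 and 20 without 48 h sample 8. The lower lysosome genes numbered 7 without 48 h sample 4 or 8 and 1 to 3 without another library, and the median ranged from 0.16 to 0.54. Of 39 genes of engulfment receptors and their cytoskeleton, 4 were higher and 3 lower, with a median of -0.17. These counts are near the shares of all genes, so they set the list apart in neither direction. tyrobp, the ITAM adaptor of Trem2 and related receptors, was at 2.24 and 3.73 units at 24 h and 22 and 15.3 in controls (difference -2.31 ± 0.60, limma adjusted p = 0.219). elmo1, which links engulfment receptors to Rac, was at 919.7 and 823 units at 24 h and 447 and 519.7 in controls. The engulfment counts were 0 higher and 2 lower without 24 h sample 7, and 3 higher and 1 lower without 24 h sample 3. They were 0 and 1 without control sample 1, 2 in each direction without control sample 5, and 4 and 7 if a 48 h sample was left out.

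Of 41 genes of lipid handling and cholesterol, 5 were higher and 1 lower, with a median of 0.77. hmgcs1, an early enzyme of cholesterol synthesis, was at 59.3 and 44.8 units at 24 h and 13.4 and 16.7 in controls, and cyp51, a later one, at 58.6 and 46.8 at 24 h and 26.8 and 20.47 in controls. The count of higher lipid genes was 2 without 24 h sample 7 or control sample 1, 9 without control sample 5, 11 without 48 h sample 4 and 12 without 48 h sample 8. Of 19 complement genes, 1 was higher and 0 lower, shares below the 9.18% and 6.52% of all genes, with a median of 0.35. That gene was cfp, properdin, which stabilizes the alternative pathway convertase, at 1159.9 and 1253 units at 24 h and 499 and 802 in controls (limma, adjusted p = 0.308). No complement gene was higher without 24 h sample 7 or control sample 1, and 2 were without 48 h sample 4 or 8.

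Of 59 genes of chemokines and their receptors, 13 were lower at 24 h and 0 higher at an unadjusted p under 0.05, beside 6.52% and 9.18% of all genes, with a median of -0.67. Beside ccl19a.1, already given, cxcr3.1 was at 0.456 and 0.223 units at 24 h and 1.3 and 1.59 in controls, close to the value of no reads, and si:dkey-269d20.3, later named cxcr3.3, at 21.5 and 18 at 24 h and 37.9 and 37.7 in controls. Both belong to the Cxcr3 family that mammals use to recruit T cells. ccr12b.2 had the largest positive difference, at 76.4 and 70.2 units at 24 h and 9.96 and 29.9 in controls (2.01 ± 0.87, limma adjusted p = 0.356). The authors' deposited table has 3 members as lower at an FDR under 0.05, beside 0.557% of all genes, and a median log2 fold of -0.917. The count of lower chemokine genes was 8 without 24 h sample 3 and 7 without 24 h sample 7 or control sample 1.

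Among 55 cytokines and inflammatory mediators, 3 were higher and 8 lower, with a median of -0.19. il10rb, a receptor chain for interleukin 10, was at 59.1 and 70.33 units at 24 h and 12.6 and 21.7 in controls, a difference of 1.90 ± 0.37 (limma, adjusted p = 0.185). il12ba, a chain of the interleukin 12 that drives type 1 responses, was at 3.01 and 1.98 units at 24 h and 33 and 11.3 in controls, and tgfb1a, transforming growth factor beta 1, at 11.62 and 10.3 at 24 h and 34.1 and 33.9 in controls. alox12, a lipoxygenase, was at 132 and 105 units at 24 h and 236 and 228 in controls. socs3b, the feedback inhibitor of cytokine receptors, was at 45.9 and 47.6 units at 24 h and 2.85 and 24.1 in controls, where the control libraries stood far apart. The cytokine counts were 1 higher and 6 lower without 24 h sample 3 or control sample 1, and 3 and 4 without 24 h sample 7. They were 6 in each direction without control sample 5, and 6 higher and 13 lower if either 48 h sample was left out. Of 52 interferon response genes, 3 were higher and 3 lower, shares below the 9.18% and 6.52% of all genes, with a median of -0.32. b2ml, a beta-2-microglobulin of class I presentation, was at 599.9 and 695 units at 24 h and 1212 and 1461 in controls, and ifih1, the RNA sensor Mda5, at 25.6 and 27.3 at 24 h and 9.8 and 12.400 in controls. The interferon counts were 1 higher and 0 lower without 24 h sample 3, and 1 and 6 without 24 h sample 7. With control sample 1 left out they were 1 and 3, with control sample 5 left out 1 and 2, and with either 48 h sample left out 5 and 6. The interferon median ranged from -0.49 to 0.03 over these fits.

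The 3 stress lists had medians between -0.33 and 0.28. Of 57 genes of the immediate early and heat shock list, 10 were higher and 0 lower, with a median of 0.18. The members that led included chaperones, though not only these: hspa4a, of the Hsp110 class, stood at 101.7 and 94.2 units at 24 h and 19.5 and 37.8 in controls, and the mitochondrial chaperonin hspd1 at 161 and 191 at 24 h and 30.8 and 61.3 in controls. The count was 5 without 24 h sample 3 or control sample 5, and 3 without 24 h sample 7, where the median was -0.05. Without control sample 5, 4 genes were lower. Of 35 oxidative stress genes under Nrf2, 8 were higher and 1 lower, with a median of 0.28. keap1b, which holds Nrf2 for degradation, was at 16 and 15 units at 24 h and 0.532 and 2.51 in controls, and the cystine transporter SLC7A11 at 7.51 and 10.3 at 24 h and 1.15 and 1.44 in controls. Of 33 p53 targets and apoptosis genes, 2 were higher and 2 lower, shares below the 9.18% and 6.52% of all genes. Their median was -0.33. apaf1, the scaffold of the apoptosome, was at 27.5 and 29.5 units at 24 h and 11 and 8.29 in controls, and cdkn1a, the p53 target p21, at 7.2 and 5.84 at 24 h and 1.46 and 2.51 in controls, while baxa, a pore-forming death gene, was at 3.17 and 4.9 at 24 h and 8.57 and 17.1 in controls. The count of higher Nrf2 genes was 5 without control sample 1 or 5, and 13 without 48 h sample 4 or 8, with 4 lower there. Of the p53 and apoptosis genes none was higher without any 1 of the 24 h and control libraries, and 9 were lower without 48 h sample 4 or 8.

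Genes known from dendritic cells had the lowest median of the 31 lists at 24 h, -1.30. Its members, like those of the other lists, were chosen with earlier results of these data known, so this rank is no independent evidence. The member id2a was also read in other brain cells, at 233, 313 and 134 units in samples 2, 6 and 10. Of its 18 genes 8 were lower and 1 higher at an unadjusted p under 0.05, and the list shares ccl19a.1, siglec15l, hepacam2 and id2a with the 15 leading lower genes. batf3, the transcription factor of cross-presenting dendritic cells in mammals, was at 2.86 and 3.38 units at 24 h and 19.7 and 28.7 in controls, a difference of -2.59 ± 0.38 (limma, adjusted p = 0.176). flt3, the receptor for the growth factor of dendritic cells, was at 16.9 and 20.47 units at 24 h and 69.8 and 60 in controls. Summed over 6 dendritic markers the signal was 186 and 192 units at 24 h, against 1236 and 1089 in controls, and none of the 6 was without reads in any of the 4 libraries. Most of the 6-marker sum in controls was ccl19a.1. Over all 18 genes of the list the sum was 1672 and 1527 units at 24 h, against 2505 and 2521 in controls. Most of the fall in this sum was that of ccl19a.1 and id2a, so it does not show a fall across the list. ccl19a.1 was at 28.1 and 26.6 units at 24 h and 820 and 653 in controls. id2a was at 87 and 89.6 at 24 h and 271 and 300 in controls. zbtb46 was the 1 marker of the 6 that stood higher at 24 h, at 46 and 49.6 units against 36.7 and 32.6 in controls. In these bulk samples fewer cells of a type and less RNA per cell cannot be told apart. The count of lower genes was 5 without 24 h sample 3 or 7. With an FDR under 0.05, 4 of the 18 were lower in the authors' deposited table, where the median log2 fold was -1.47.

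Markers of red blood cells, oligodendrocytes and neurons stood lower at 24 h. The summed signal of 14 erythrocyte genes was 82.5 and 82.1 units at 24 h, against 760 and 156 in controls, with 6 lower and 1 higher. The globin gene listed as ba1 was at 14.4 and 10.3 units at 24 h and 400.4 and 58.2 in controls, where control sample 1 was far above control sample 5. The summed signal of 21 oligodendrocyte genes was 735 and 1179 units at 24 h, against 2414 and 1434 in controls, with 6 lower and 1 higher. The myelin proteolipid gene plp1b was at 48.7 and 110.1 units at 24 h and 329 and 211 in controls. The 35 neuron markers summed to 219 and 221 units at 24 h, against 550 and 569 in controls, with 5 lower and 1 higher, and the 29 radial glia markers had 5 lower and 0 higher, with a median of -0.78. The radial glia sum was 3601 and 7761 units at 24 h and 4812 and 5456 in controls, with 24 h sample 7 above both controls. s100b, a calcium-binding protein of glia, was at 7.59 and 16.4 units at 24 h and 52.6 and 45.6 in controls. The 32 lymphocyte genes summed to 403 and 527 units at 24 h and 784 and 405 in controls, and the 14 neutrophil genes to 2839 and 2393 at 24 h and 2066 and 1878 in controls. Of these 14 neutrophil genes 0 were higher and 2 lower at an unadjusted p under 0.05, with a median of -0.03. That median ranged from -0.22 to 0.21 when a library was left out, so the list has no settled direction. A set of 6 neutrophil markers summed to at most 35.23 units in the 4 libraries, with 2 markers higher and 4 lower at 24 h. Of 25 endothelial and mural genes, 4 were higher and 4 lower. With 24 h sample 3 left out 3 were higher and 0 lower, and with 24 h sample 7 left out 2 were higher and 1 lower. Each control sample left out gave 2 higher genes. The part of these cells in the differences of the other lists was not tested. The lower genes among erythrocyte, oligodendrocyte and neuron markers numbered 2, 1 and 3 without 24 h sample 3, and 2, 3 and 1 without 24 h sample 7. There was 1 lower oligodendrocyte gene without control sample 1, there were 3 lower neuron markers without control sample 5, and there were 10 without 48 h sample 4 or 8. The lower radial glia markers numbered 3 without 24 h sample 3 or control sample 1.

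**Figure D3:**
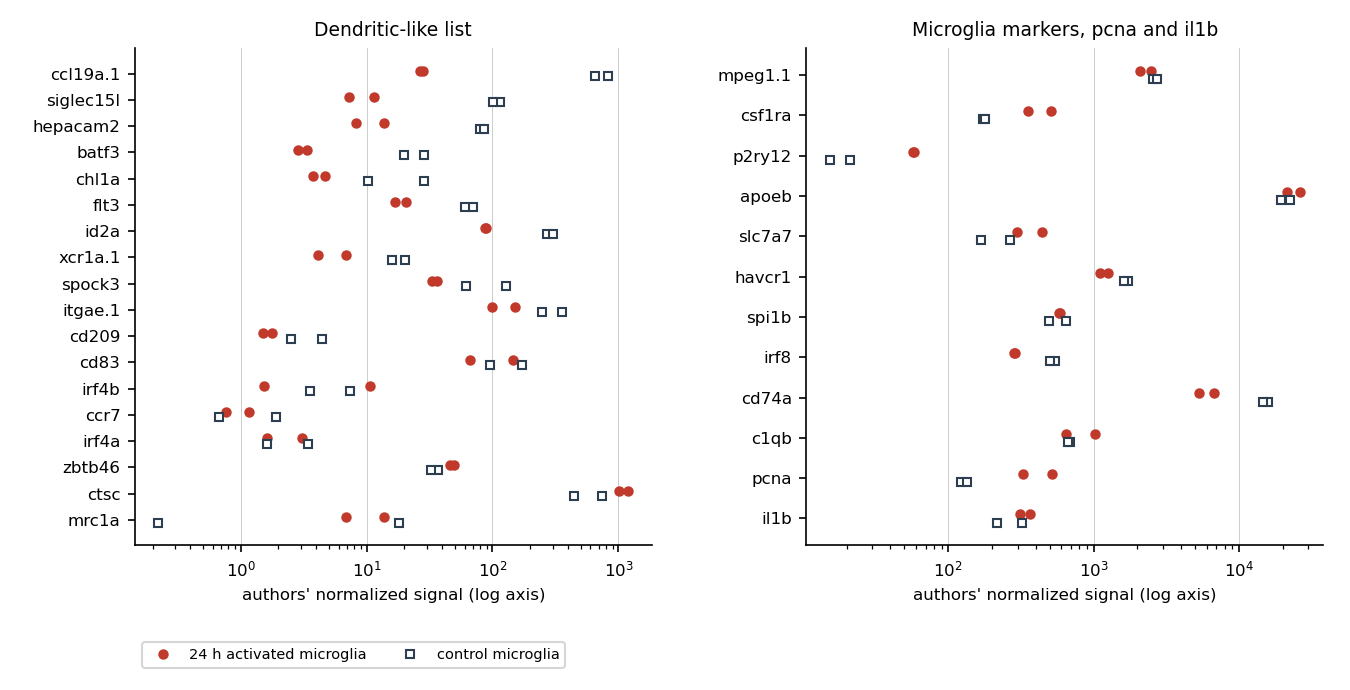
Authors' normalized signal (log axis) of the 18 dendritic-like genes (left) and of the microglia markers with pcna and il1b (right), 1 point per library: 24 h activated microglia as filled circles, control microglia as open squares. ccl19a.1, at 28.1 and 26.6 units at 24 h and 820 and 653 in controls, lies farthest apart on the left. On the right mpeg1.1 and apoeb nearly coincide between groups, and pcna and p2ry12 are higher at 24 h.

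Setting 24 h against 48 h microglia asks where the early state differs from the later one, by a difference that holds no control values. The control libraries still share in the estimate of the spread, since all groups are in the same fit. No gene passed an adjusted p of 0.05 (0%), with 0.892 as the smallest adjusted p in limma, and 489 genes (2.25%) were higher and 410 (1.89%) lower at 24 h at an unadjusted p under 0.05. The mitosis list stood apart from the replication lists in its count. Of 73 mitosis and cytokinesis genes, 40 were lower at 24 h than at 48 h and 0 higher, with a median of -1.58 against 0.04 over all genes. Of the 28 helicase genes 0 were lower or higher, with a median of -0.11, and of the 35 fork genes 1 was lower, with a median of -0.41. The medians of these lists for 24 h over 48 h were, in the authors' deposited table, -1.77, -0.123 and -0.445.

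cdk1 stood at 38.9 and 24.7 units at 24 h and 108 and 148 at 48 h, a difference of -1.996 ± 0.33 (limma, adjusted p = 0.892), with controls at 12.43 and 9.81. plk1, a kinase of spindle assembly and cytokinesis, stood at 18.5 and 9.35 units at 24 h and 76.1 and 63.1 at 48 h. tacc3, a protein of spindle microtubules, stood at 9.99 and 8.88 at 24 h and 33 and 34.2 at 48 h, and kpna2, an importin that is not in the mitosis list, at 60.5 and 59.8 at 24 h and 197 and 315 at 48 h. In controls plk1 was at 8.41 and 6.92 units, tacc3 at 3.62 and 4.64 and kpna2 at 24.9 and 15.4, each below both 24 h libraries. Well-known mitosis genes chosen after their values were seen also stood lower at 24 h than at 48 h. ccnb1, the cyclin partner of Cdk1, was at 8.05 and 5.26 units at 24 h, 24.5 and 26.1 at 48 h, with controls at 6.09 and 2.81, and aurkb, the kinase of the chromosomal passenger complex, at 16 and 13.7 at 24 h, 41.8 and 66.5 at 48 h, with controls at 5.01 and 4.18. The 6 genes that differed between 24 h and 48 h at an FDR under 0.05 in the authors' deposited table were all lower at 24 h: kifc1, prc1b and ube2c, which act in mitosis, and serpinf1, sepp1a and zgc:194627.

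By contrast pcna was at 518 and 329 units at 24 h and 298 and 368 at 48 h, mcm5 at 138 and 117 at 24 h and 104 and 108 at 48 h, and rrm1 at 72.9 and 66 at 24 h and 77.5 and 71.7 at 48 h. The limma differences of 24 h minus 48 h were 0.32 ± 0.30, 0.26 ± 0.24 and -0.10 ± 0.33, and these do not show that the levels are equal. Other replication and nucleotide synthesis genes named above stood on either side. In the authors' deposited table rrm2 and pold1 had log2 folds of -0.934 and -0.664 for 24 h over 48 h. There dnmt1 and atic had 0.519 and 1.655, and the FDR of all these was from 0.672 to 0.9905. The sign for pcna turned without 24 h sample 3 (-0.01), and that for rrm1 with quantile scaling (0.05). The mitosis count was 26 without 24 h sample 3, 13 without 24 h sample 7 and 26 without 48 h sample 8. Without 48 h sample 4, the comparison then resting on 48 h sample 8, the library that stands apart, 17 fork genes, 7 helicase genes and 19 proteasome genes were lower at 24 h as well, in a fit in which 2816 of all 21714 genes (13%) were lower and 2526 higher. The helicase median was -0.36 without 24 h sample 3 or 48 h sample 4, but 0.20 without 24 h sample 7 and 0.07 without 48 h sample 8. The fork median was -0.80 without 48 h sample 4 and 0.09 without 48 h sample 8, so neither list has a settled direction, while the mitosis median stayed between -1.86 and -1.22.

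**Figure D4:**
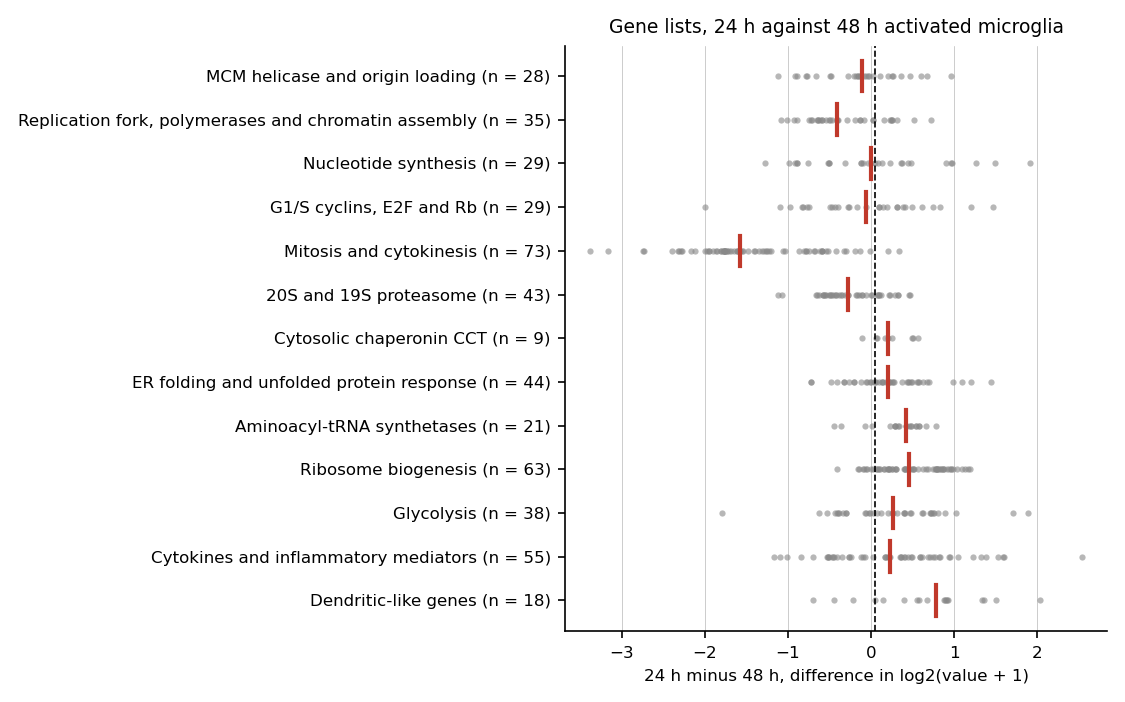
Difference of 24 h minus 48 h microglia in log2(value + 1) for the members of 13 gene lists, 1 grey point per gene, with the list median as a red bar and the median over all genes as a dashed line; n is the number of genes tested. The mitosis list lies to the left of all others, at a median of -1.58, while the helicase list lies at -0.11.

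In several lists more genes were higher than lower at 24 h against 48 h at an unadjusted p under 0.05. Of all genes 2.25% were higher and 1.89% lower at that level. Without 48 h sample 4 far more of all genes reached this level in both directions, so the list counts of that fit cannot be compared with those of the main fit. Ribosome biogenesis had 5 of 63 genes higher and 0 lower, with a median of 0.45, and glycolysis 6 of 38 higher and 1 lower, with a median of 0.26. hk1 was at 99.5 and 143 units at 24 h and 62.7 and 54.3 at 48 h, and aldocb, an aldolase, at 185 and 235 at 24 h and 119 and 119.9 at 48 h. Cytokines and inflammatory mediators had 8 of 55 higher and 1 lower, with a median of 0.23. Without 24 h sample 3 or 48 h sample 4 the higher cytokine genes no longer outnumbered the lower ones, with medians of 0.30 and 0.11. The counts of higher genes in the ribosome biogenesis, glycolysis and cytokine lists all fell without 24 h sample 3 and without 24 h sample 7. They therefore depend on single libraries. Without each library in turn the medians ranged from 0.362 to 0.515 for ribosome biogenesis and 0.134 to 0.304 for glycolysis. For cytokines the range was 0.108 to 0.296. Dendritic-like genes had a median of 0.78, with 2 of 18 higher, siglec15l standing at 11.46 and 7.25 units at 24 h, 2.97 and 3.1 at 48 h, with controls at 115 and 101.

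Of single genes, f5, coagulation factor V, was at 14.9 and 19.5 units at 24 h, against 2.17 and 0.223 at 48 h, with controls at 0.378 and 1.14, a 24 h minus 48 h difference of 3.198 ± 0.58 (limma, adjusted p = 0.892). ppargc1b, a coactivator of mitochondrial and fatty acid oxidation genes, was at 103 and 112 units at 24 h, 56.9 and 46.1 at 48 h, with controls at 46.4 and 55.5. araf, a Raf kinase, was at 66.5 and 65.6 units at 24 h, 33.7 and 35.4 at 48 h, with controls at 40.4 and 39.9, and gas5, a host gene of small nucleolar RNAs, at 34.3 and 34.8 at 24 h, 13.3 and 14.5 at 48 h, with controls at 24 and 30.4. si:ch211-284o19.8 was at 26.3 and 36 units at 24 h, 10.1 and 10.4 at 48 h, with controls at 7.79 and 9.66. All of these 24 h values lay above both 48 h values, which was a condition for choosing these genes. In the other direction sepp1a, selenoprotein P, which carries selenium, was at 135 and 213 units at 24 h, against 964 and 1002 at 48 h, with controls at 226 and 200.2, a difference of -2.53 ± 0.29 (adjusted p = 0.892), and its 24 h libraries overlapped the controls. The actin-severing gene scinla was at 50.5 and 33 units at 24 h, 126 and 128 at 48 h, with controls at 22.6 and 23.5, and si:ch211-194m7.4 at 14.4 and 16.1 at 24 h, 59.3 and 78.7 at 48 h, with controls at 3.31 and 3.72.

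**Figure D5:**
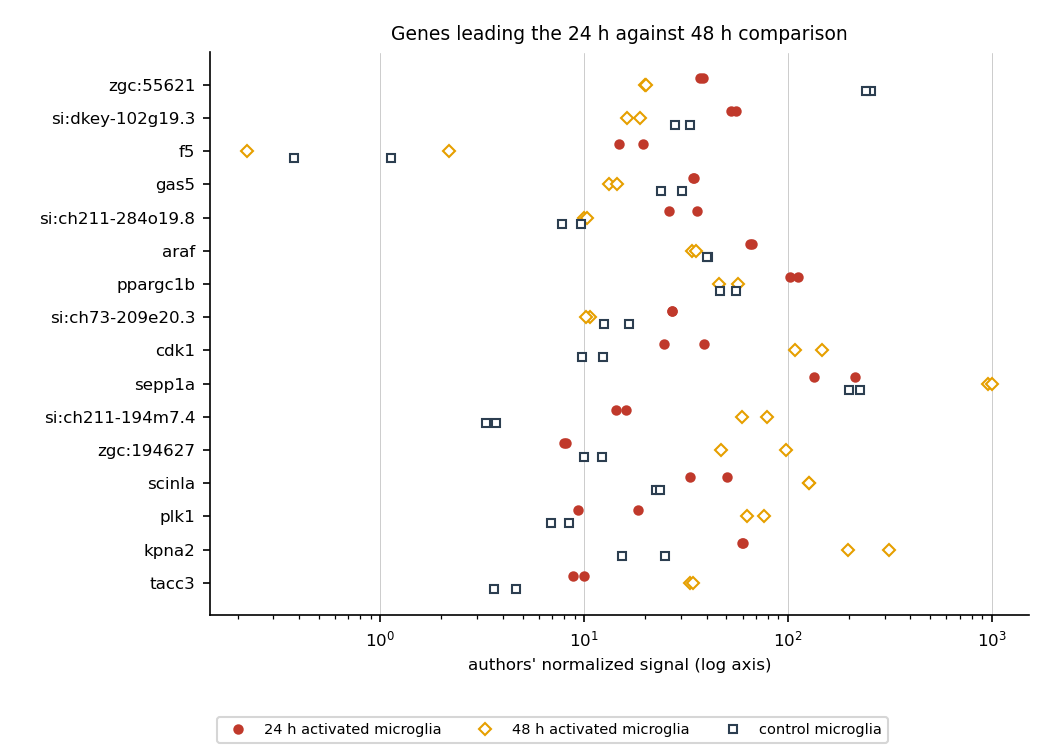
Authors' normalized signal (log axis) of the 16 genes that lead the comparison of 24 h with 48 h microglia, 1 point per library: 24 h as filled circles, 48 h as open diamonds, control microglia as open squares. sepp1a, at 135 and 213 units at 24 h and 964 and 1002 at 48 h, lies with the controls at 24 h, and cdk1, plk1, kpna2 and tacc3 lie between the controls and 48 h.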

How the data were processed

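RNA of sorted zebrafish microglia was sequenced by the submitters, whose processing notes list build GRCz10, SAMtools 0.1.18, TopHat2 2.0.5 and edgeR (version not given); counting, annotation and scaling are not given in the sources used here. The deposited table holds a normalized signal per gene and library. Each library's values are 0.223 plus a whole number of equal steps (largest deviation 8.48e-05 steps), and 1 step was taken as 1 read. A second deposited table gives log2 fold changes computed by the authors together with their FDR, an adjusted p-value.

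A gene was tested where 2 or more of 9 libraries reached a value of 1 (21714 of 21756 genes), on log2(value + 1) with limma 3.58.1 (R 4.3.3, lmFit, eBayes with a mean-variance trend, two-sided), in 1 fit of 6 microglia libraries with 3 groups (3 residual and 2.05 prior degrees of freedom), with Benjamini-Hochberg adjustment. This filter counts 9 libraries, the 3 of other brain cells included. The script was checked on simulated data. Depth per library and what 3 reads are worth are given with the results; recovered reads cover counting error only.

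Genes named are the 15 of smallest p in each direction without overlap and with a mean of at least 5, up to 4 of smallest p and the largest differences of each of 31 lists (1128 of 1244 names found), and 8 in each direction between 24 h and 48 h; others are said to be chosen later. Members and lists were chosen with earlier results of these data known. Gene names are the files' own, with later symbols from a gene name table. Alternatives tried were pseudocounts, filters, scalings, the libraries in the fit, weights, the variance trend, limma-voom and the place of the identical column. Figures were drawn with matplotlib 3.10.9 (Python 3.11.15, numpy 2.4.6, pandas 2.3.3).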

Additional observations from a re-analysis of the deposited data

Results flagged for a closer look

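The genes named by rule were searched for both 24 h libraries on one side of both control libraries and both 48 h libraries on the other. This order was found in 6, which lead the comparison of 24 h with 48 h or belong to its mitosis list. Leading genes had been chosen for no overlap between 24 h and 48 h. The share of all genes with this order was not counted, so whether 6 is many is not known, and the order was not tested by itself. The direct limma test of 24 h minus 48 h gave an adjusted p of 0.892 for each of the 6 genes. ube2c (ENSDARG00000035770) was at 6.5 and 5.61 units at 24 h, 32.8 and 116 at 48 h, with controls at 17.1 and 11.8, a 24 h minus 48 h difference of -3.16. zgc:194627 was at 8.13 and 7.95 units at 24 h, 47.1 and 98 at 48 h, with controls at 9.96 and 12.2, a difference of -2.93. si:dkey-102g19.3 was at 55.7 and 52.7 units at 24 h, 16.3 and 18.8 at 48 h, with controls at 33.29 and 27.9, a difference of 1.58. ENSDARG00000086746, later named prodha after proline dehydrogenase, was at 27.1 and 26.9 units at 24 h, 10.7 and 10.2 at 48 h, with controls at 12.6 and 16.7, a difference of 1.29. gas5 and araf, whose values are given above, had differences of 1.26 and 0.92.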

How the results depend on the processing

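The count of genes called between 24 h and control microglia was 1 in the report and stayed at 1 with a pseudocount of 0.5, without a filter, with quantile or median-ratio scaling, with other brain cells in the fit and at an adjusted p under 0.1. It was 0 with a pseudocount of 5, with only the 4 libraries compared, without the mean-variance trend, with limma-voom on whole steps and at an adjusted p under 0.01. With the identical column in both groups, as a control only or in neither group it was also 0, with 54, 533 and 1712 genes at an unadjusted p under 0.05 (3408 in the report); with that column in both groups or as a control only the replication fork list had 0 of 35 genes higher. Without each library in turn it was 0 to 0, with 1712 to 5170 genes at an unadjusted p under 0.05; the single library then left in a group is taken to vary like the others. It was 10 (7 higher, 3 lower) with a value of at least 5 in 2 microglia libraries, 6 (5 higher, 1 lower) with a value of at least 1 in 2 microglia libraries, a filter chosen after seeing the data, and 4 (3 higher, 1 lower) with array weights. Under the first of these filters the genes added were psmd2, PSMD2 (2 of 2), mcm5, mcm2, dnmt1, mms22l, zgc:55621, siglec15l and ccl19a.1. The filters left 13582 and 18701 genes to test; the cause of these changes was not tested. Between 24 h and 48 h the count was 0 under all settings run. Of genes named, the direction turned in these settings: for mpeg1.1 at 24 h against control with the identical column as a control only (0.0134), for rrm1 at 24 h against 48 h with quantile scaling (0.045), and for pcna at 24 h against 48 h, whose range without each library in turn was -0.011 to 0.644. The count tests planned for reads were not run, since the deposited values as they stand are not multiples of 1 read. The whole steps above the constant were taken as reads for limma-voom. A count test on these steps was possible but was not run. No paired analysis was possible because the labels number the samples through the series and give the groups no shared replicate numbers; sets drawn from sample order would be a guess and were not fitted. Depth limits genes near 0.223 units, where 1 read moves the value.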
